A study of Homo sapiens with 4 samples.

Results

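The mRNAs of cohesin, condensin and the SMC5/6 complex were examined for binding by the DEAH-box helicase DHX36. These 10 genes were taken by name from the 26490 genes of the PAR-CLIP table, as SMC1A, SMC3, RAD21, STAG1, STAG2 and NIPBL for cohesin, SMC2 and SMC4 for condensin, and SMC5 and SMC6 for the SMC5/6 complex. Their choice used no measured value as its rule. PAR-CLIP had been done in HEK293, a human embryonic kidney cell line, with 2 samples per cell line. Both lines carried a stable, tetracycline-inducible transgene for HA/FLAG-tagged DHX36 and kept their own DHX36 gene. One line, here FH-DHX36, expressed isoform 2. The other, FH-DHX36-E335A, expressed isoform 1 with the E335A change that inactivates the helicase, so that isoform and mutation cannot be told apart. All cells received 500 ng per ml tetracycline for 15 h and were irradiated at 365 nm for 5 min, and RNA bound to the tagged protein was recovered with a FLAG antibody. The cell line was taken from the labels, since a table of bound RNA gives no check of it. The authors deposited 1 value per gene and cell line, so that no spread between replicates and no test between the lines can be given.

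SMC proteins are long coiled-coil ATPases that pair into rings around DNA. In cohesin, SMC1A and SMC3 are closed by the kleisin RAD21, STAG1 or STAG2 binds the kleisin, and NIPBL loads the ring onto chromosomes and stimulates its ATPase, which holds sister chromatids together and extrudes chromatin loops. In condensin, SMC2 and SMC4 form the ring that compacts mitotic chromosomes, and SMC5 with SMC6 forms a ring that acts in DNA repair. DHX36 binds and unwinds G-quadruplexes, which are stacks of guanine tetrads that form where several runs of guanines lie close together in RNA.

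The table gives the number of clusters (stretches where reads that overlap carry T-to-C conversions, the mark of a crosslink), the number of crosslinked reads, and NXPM, a score in which crosslinked reads, scaled for depth, are divided by the abundance of the mRNA. In total, 8752127 crosslinked reads were listed for FH-DHX36-E335A and 2160413 for FH-DHX36. With FH-DHX36-E335A, 9 of the 10 mRNAs carried a cluster, compared with 34.5% of all genes in the table and 48.1% of the 17930 identifiers that matched a protein-coding transcript. With FH-DHX36, 5 of the 10 did, compared with 22.4% and 31.3%. Genes without expression in HEK293 are part of these backgrounds, and abundance can be computed only for bound genes, so that the counts are not adjusted for it. The mRNAs bound in both PAR-CLIPs were STAG2, NIPBL, SMC2, SMC4 and SMC6. SMC3, RAD21, STAG1 and SMC5 were bound with FH-DHX36-E335A and listed at 0 with FH-DHX36. SMC1A was listed at 0 in both.

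SMC4, the condensin ATPase, was the most deeply covered of the 10 mRNAs. It held 5449 FH-DHX36-E335A reads in 45 clusters and 287 FH-DHX36 reads in 5 clusters, and ranked 258 and 1602 by reads among all genes. STAG2, a paralog of STAG1 that binds the kleisin, came next with 3732 reads in 32 clusters and 469 reads in 8 clusters, the highest FH-DHX36 count of the group. RAD21 had 1074 FH-DHX36-E335A reads in 22 clusters and SMC2 had 1071 in 19. The pair was thus nearly equal in reads, but SMC2 also had 32 FH-DHX36 reads in 1 cluster, whereas RAD21 had none. NIPBL had 950 FH-DHX36-E335A reads in 17 clusters and 125 FH-DHX36 reads in 3 clusters.

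Fewer reads fell on the SMC5/6 pair and on SMC3. SMC5 had 754 FH-DHX36-E335A reads in 9 clusters. SMC3, the partner of SMC1A, had 467 reads in the same number of clusters. SMC6 had 314 reads in 3 clusters and, with FH-DHX36, 38 reads in 1 cluster. The lowest count among bound members was that of STAG1, the paralog of STAG2, with 53 FH-DHX36-E335A reads in 2 clusters. The 9 bound mRNAs had a median of 950 FH-DHX36-E335A reads and 17 clusters, compared with 326 reads and 5 clusters over all genes with a cluster. Reads per cluster ranged from 26.5 on STAG1 to 121 on SMC4, with a median over genes of 65.8. SMC4, STAG2 and RAD21 had more than 20 clusters, as did 4.4% of genes with a cluster.

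**Figure D1:**
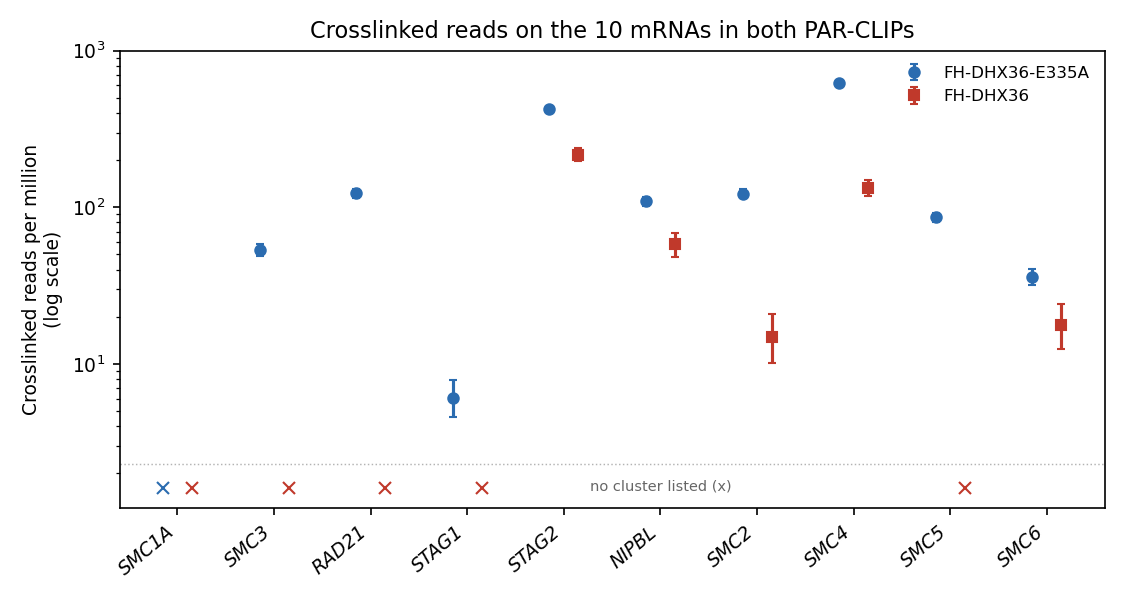
RPM, the crosslinked reads of a gene per 1000000 in each PAR-CLIP (log scale), for the 10 mRNAs, with circles for FH-DHX36-E335A, squares for FH-DHX36 and bars for the exact 95% Poisson interval, which covers counting error only. Crosses mark genes without a listed cluster. SMC4 (623 and 133) and STAG2 (426 and 217) lie highest in both PAR-CLIPs.

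Scaled to 1000000 crosslinked reads of each PAR-CLIP (RPM), each of the 5 mRNAs bound in both had the higher share with FH-DHX36-E335A. Of all 5669 genes bound in both, 53.4% were higher there, and the median ratio of FH-DHX36-E335A over FH-DHX36 was 1.09, with quartiles of 0.503 and 2.25. SMC2 had 122 RPM in the FH-DHX36-E335A and 14.8 RPM in the FH-DHX36 PAR-CLIP, a ratio of 8.26 (95% interval from 5.82 to 12.1). SMC4 had 623 and 133, a ratio of 4.69 (4.16 to 5.30). Both condensin ATPases lay above the upper quartile of the ratio, at percentiles 97.4 and 91.5. STAG2, NIPBL and SMC6 had ratios of 1.96 (1.78 to 2.17), 1.88 (1.56 to 2.28) and 2.04 (1.45 to 2.94), which lay between the median and the upper quartile. The intervals are exact binomial intervals of the counts. They cover counting error only, because reads that overlap or stem from PCR do not count separate molecules.

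For the 4 mRNAs listed at 0 with FH-DHX36 no ratio was computed, because the table lists no gene with a cluster below 6 FH-DHX36 reads and a 0 need not mean that no read was seen. An equal share of crosslinked reads would have put 265 FH-DHX36 reads on RAD21, 186 on SMC5, 115 on SMC3 and 13 on STAG1. No FH-DHX36 cluster was listed for 37.9% of genes bound with FH-DHX36-E335A and for 4 of the 9 members bound there. Among genes with at least 1000 FH-DHX36-E335A reads, this applied to 4.61%, or 99 of 2149, of which RAD21 was 1. The other 3 members at this depth, SMC4, STAG2 and SMC2, were bound in both.

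NXPM put the bound mRNAs in another order, because their abundances differed. Abundance, on the authors' RNA-seq scale, was recovered from reads and NXPM and ranged from 1.64 for SMC5 and 2.10 for SMC6 to 12.8 for SMC4 and 13.8 for RAD21. The median over the 9 mRNAs was 4.08, compared with 5.89 over all genes with an FH-DHX36-E335A cluster. STAG2 had the highest FH-DHX36-E335A NXPM, 63.3, followed by SMC5 with 52.4, SMC4 with 48.5 and SMC2 with 47.3. NIPBL had 26.6 and SMC6 had 17.1. RAD21, SMC3 and STAG1 were lowest, with 8.88, 6.32 and 1.82. SMC5, the least abundant of the 9 at percentile 17 of all bound genes, thus lay at percentile 89.3 of NXPM. RAD21, the most abundant, lay at percentile 70.5 of abundance and 60.1 of NXPM. The median NXPM of all genes with a cluster was 5.66, and 8 of the 9 bound members lay above it. STAG1 did not. With FH-DHX36 the values were 32.3 for STAG2, 14.2 for NIPBL, 10.3 for SMC4, 8.38 for SMC6 and 5.72 for SMC2, with a median over genes of 7.84.

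**Figure D2:**
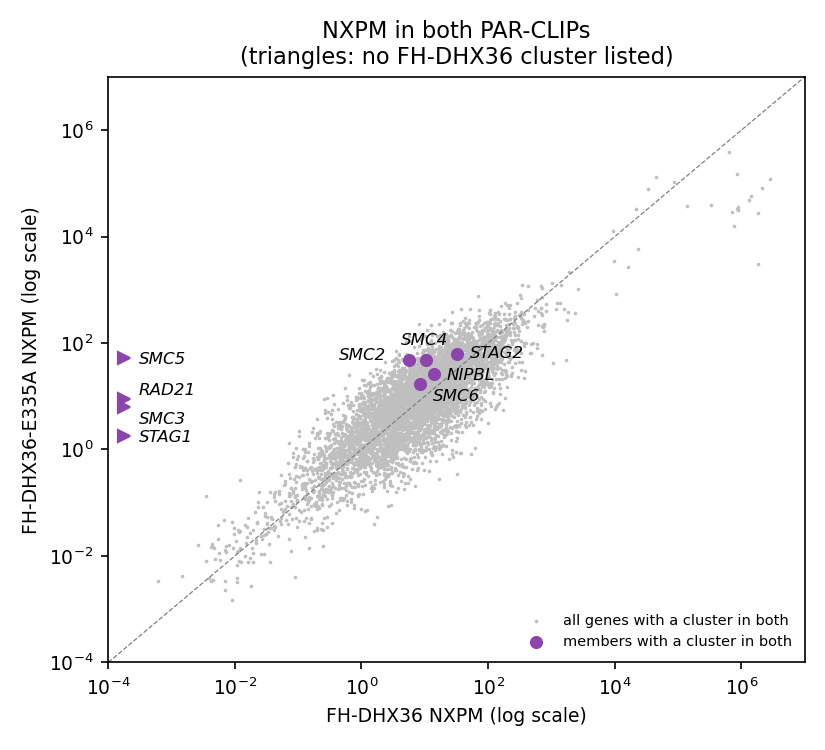
NXPM of FH-DHX36-E335A (vertical) against FH-DHX36 (horizontal), both on log scales, for the 5669 genes bound in both (grey) and the 5 members among them (purple), with the dashed line at equal values. Triangles at the left edge give the FH-DHX36-E335A NXPM of the 4 members without an FH-DHX36 cluster. All 5 members lie above the line, SMC2 farthest with 47.3 against 5.72.

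Summed over members, the 5'UTR and CDS took larger shares of reads than in the whole table, and the 3'UTR a smaller share. With FH-DHX36-E335A, the members' reads divided into 15.6% 5'UTR, 33.0% CDS and 27.6% 3'UTR, compared with 3.86%, 16.9% and 53.3% of all crosslinked reads. With FH-DHX36 the summed shares were 25.9%, 46.8% and 8.83%, compared with 7.97%, 28.4% and 38.4%. SMC4 and STAG2 supplied most of these reads. Without SMC4 the 5'UTR share was 7.17% (FH-DHX36-E335A) and 5.87% (FH-DHX36), the latter below that of all reads. Without STAG2 the CDS share was 36.25% (FH-DHX36-E335A) and 16.6% (FH-DHX36), the latter again below that of all reads. The larger FH-DHX36 shares thus rested on 1 gene each. A further 22.3% of the members' FH-DHX36-E335A reads and 5.26% of their FH-DHX36 reads had another annotation, compared with 21.4% and 16.7% of all reads. In this pipeline, other annotations include start codons, stop codons and retained introns. Introns held 1.44% and 13.2% of the members' reads, compared with 4.48% and 8.51% of all reads. Among the 8 members with FH-DHX36-E335A reads in the CDS or 3'UTR, 3 had more in the CDS (SMC4, SMC3 and NIPBL), compared with 31.5% of all genes with such reads. Counted by clusters, 4 did, STAG2 being the addition, and per kb of the canonical transcript 2 did, SMC3 and NIPBL. An FH-DHX36-E335A cluster in the 5'UTR was listed for 4 of the 9 bound members (SMC3, NIPBL, SMC4 and SMC5), compared with 20.4% of genes with a cluster.

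**Figure D3:**
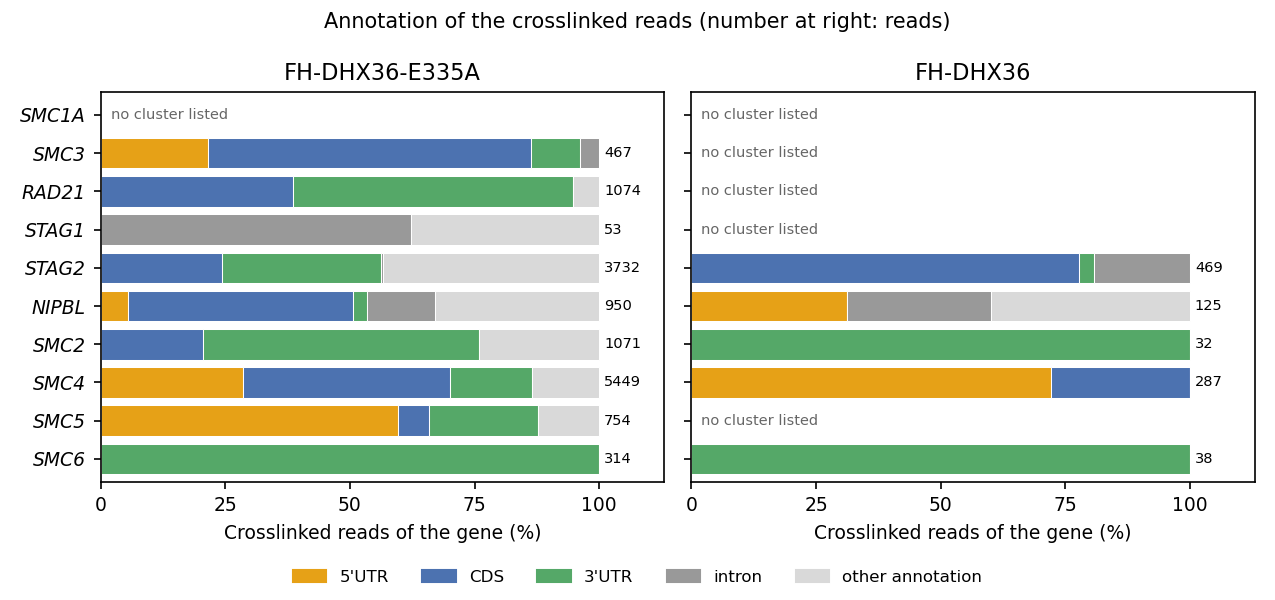
Share of each gene's crosslinked reads (horizontal, in percent) in the 5'UTR, CDS, 3'UTR, introns and other annotations, for FH-DHX36-E335A (left) and FH-DHX36 (right), with the number of reads beside each bar. SMC4 and SMC5 stand out by their 5'UTR, SMC6 has 3'UTR reads alone, and the CDS share of STAG2 falls from 77.8% (FH-DHX36) to 24.3% (FH-DHX36-E335A).

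By reads, though not by FH-DHX36-E335A NXPM, the strongest 5'UTR binding of the group was on SMC4. The 5'UTR held 1559 of its FH-DHX36-E335A reads in 2 clusters, or 28.6% (95% Wilson interval from 27.4% to 29.8%), and 207 of its FH-DHX36 reads in 2 clusters, or 72.1% (66.7% to 77.0%). In the CDS there were 2264 reads in 33 clusters with FH-DHX36-E335A and 80 reads in 3 clusters with FH-DHX36. The 3'UTR held 890 reads in 7 clusters with FH-DHX36-E335A and had no FH-DHX36 cluster. On the RPM scale, the ratio of FH-DHX36-E335A over FH-DHX36 was 1.86 (1.61 to 2.16) in the 5'UTR and 6.99 (5.59 to 8.84) in the CDS, so that the lines differed less in the 5'UTR than in the CDS. With the reads of all genes pooled, the ratio was 0.484 for 5'UTR reads and 0.597 for CDS reads. These pooled values weight genes by their reads, and the spread of regional ratios over genes was not computed. The canonical 5'UTR of SMC4 is only 105 nt long, which gave 14848 FH-DHX36-E335A reads per kb, against 585 for the CDS and 778 for the 3'UTR. With the longest annotated transcript, whose 5'UTR has 345 nt, the density was 4519 per kb. No intronic cluster was listed for SMC4, and MIR15B and MIR16-2, the microRNA genes within SMC4, were both listed at 0.

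SMC5 was the member with most of its FH-DHX36-E335A reads in the 5'UTR. A single 5'UTR cluster held 450 of the 754 reads, or 59.7% (56.1% to 63.1%). The 5'UTR NXPM of 809 was the highest 5'UTR value among the members, ahead of 359 for SMC4. This score is scaled to 5'UTR reads alone and so cannot be set beside the whole-gene score or that of another region. The 3'UTR held 166 reads in 5 clusters and the CDS 46 reads in 1. Per kb, the 101 nt of 5'UTR held 4455 reads, the CDS 13.9 and the 3'UTR 65.3. SMC3 had 101 reads in 2 clusters in its 5'UTR of 122 nt, 302 reads in 4 clusters in the CDS and 46 in 2 clusters in the 3'UTR. Its density was thus 828 per kb for the 5'UTR, 82.6 for the CDS and 26.3 for the 3'UTR. NIPBL had 52 5'UTR reads with FH-DHX36-E335A, or 5.47% (4.20% to 7.11%), and 39 with FH-DHX36, or 31.2% (23.7% to 39.8%).

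**Figure D4:**
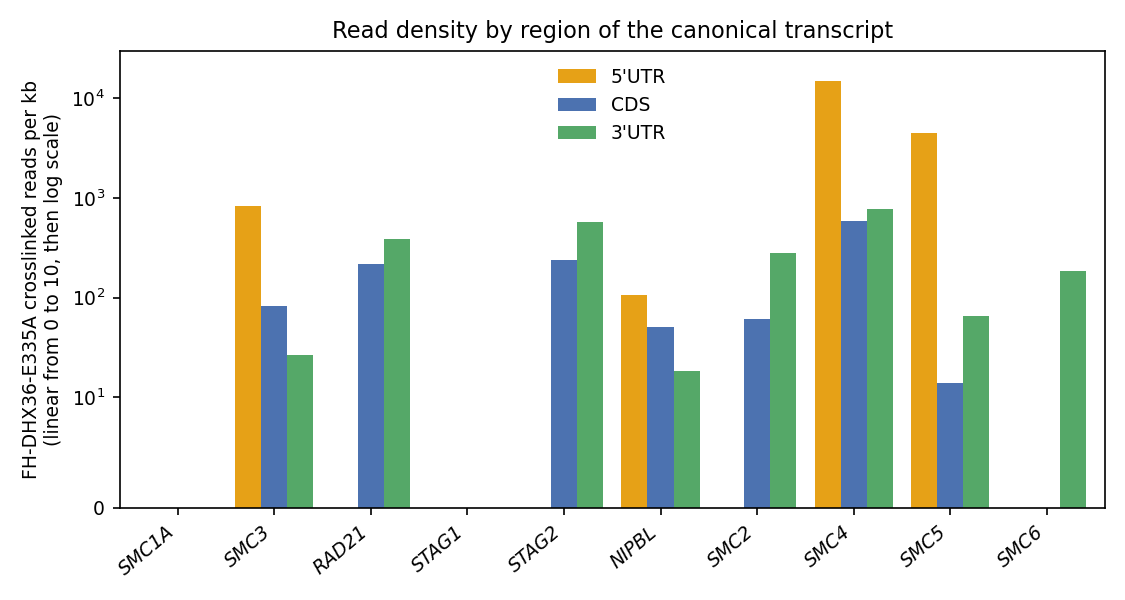
FH-DHX36-E335A crosslinked reads per kb of the 5'UTR, CDS and 3'UTR of the canonical transcript (vertical axis linear from 0 to 10 and logarithmic above) for the 10 mRNAs. In SMC3, NIPBL, SMC4 and SMC5 the 5'UTR is densest, while in RAD21, STAG2 and SMC2 the 3'UTR is denser than the CDS and the 5'UTR has no reads.

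The 5'UTRs with reads were searched for sequences able to supply 4 runs of guanines, that is 4 runs of at least 2 guanines with gaps of 1 to 7 nt of any base, on the sense strand of canonical transcripts and without overlap between matches. All 4 members with a 5'UTR cluster had a match there. They are shown because the 5'UTR had the most reads per kb of the 3 transcript regions in each of these mRNAs. Capitals mark the guanine runs, and all positions are on GRCh37 (the build of hg19), in exon 1 of the plus strand.
SMC4, chr3:160117471-160117486: GGtaGGagcGGGGaGG
SMC5, chr9:72873903-72873923: GGGagcGGGGcgcctGGGtGG
SMC5, chr9:72873926-72873951: GGGcgcttGGGcgcctGGGctgccGG
SMC3, chr10:112327457-112327486: GGctgaGGGGagcgagcGGcgctttGGGGG
NIPBL, chr5:36877090-36877104: GGGagaaGGaGGaGG
The SMC4 match begins 72 nt before the start codon. The SMC5 matches begin 92 and 69 nt before it, and another 24-nt match spans the SMC5 start codon. NIPBL had 2 more matches in its 5'UTR of 489 nt. The table does not place the clusters within a region, so that no match is tied to a cluster.

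Matches were also found where no reads were listed. The 5'UTRs of RAD21, STAG1, STAG2 and SMC6 held 2, 2, 1 and 4 matches and no cluster in either PAR-CLIP, so that 8 of the 10 members had a 5'UTR match and 4 had a 5'UTR cluster. Over all matched identifiers, 53.1% of canonical 5'UTRs held a match, although their median length of 134 nt is below the members' 214 nt. The share was 81.6% among genes with an FH-DHX36-E335A cluster in the 5'UTR and 58.3% among bound genes without one, whose median 5'UTR lengths of 231 and 126 nt also differed. SMC1A, with no cluster in either PAR-CLIP, had more matches than any other member, 20 in all, of which 10 lay in its CDS and 10 in its 3'UTR of 5954 nt. An example from its 3'UTR, shown as a G-rich stretch on an mRNA without reads, lies on the minus strand.
SMC1A, chrX:53402156-53402175: GGGagaaGGtGGGacttaGG
The abundance of SMC1A cannot be recovered from the PAR-CLIP table without reads, and its level was not analysed here.

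**Figure D5:**
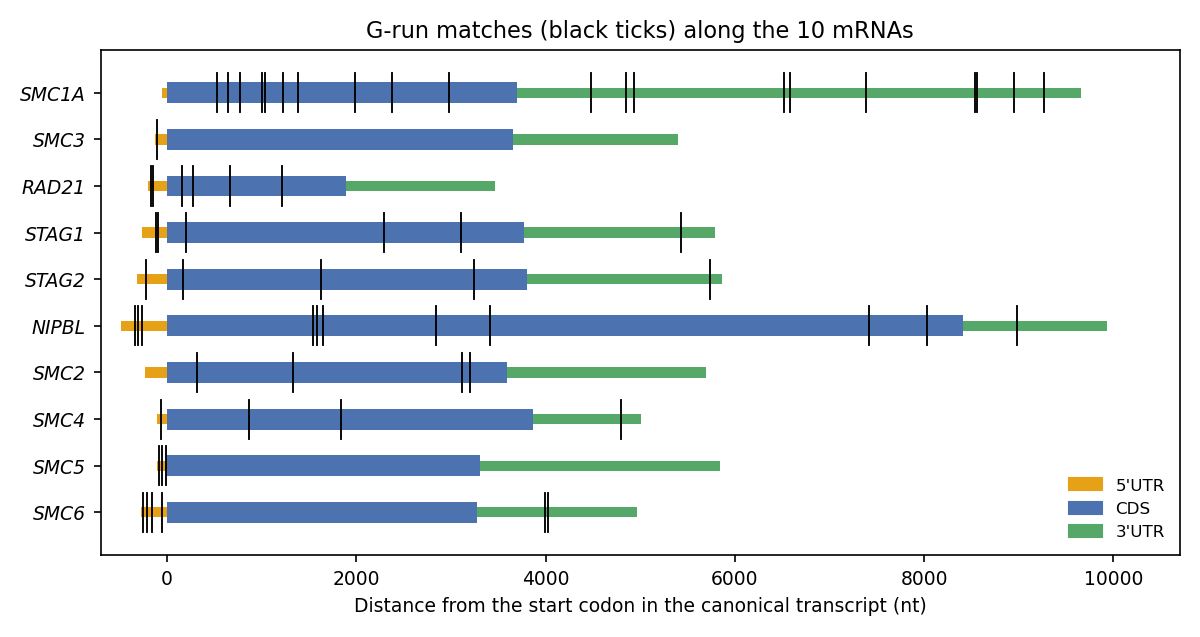
Canonical transcripts of the 10 mRNAs drawn to scale from the start codon (horizontal, in nt), with the 5'UTR in orange, the CDS in blue and the 3'UTR in green. Black ticks mark the 66 guanine-run matches. The 20 matches of SMC1A are spread along its CDS and 3'UTR, whereas the matches of SMC5 crowd at its start.

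STAG2 differed from SMC4 in where the lines bound. With FH-DHX36, 365 of 469 reads lay in 5 CDS clusters, or 77.8% (73.8% to 81.4%), and 14 reads in 1 cluster lay in the 3'UTR. With FH-DHX36-E335A, 906 of 3732 reads were in 14 CDS clusters, or 24.3% (22.9% to 25.7%), 1190 in 12 3'UTR clusters and 1617 in 5 clusters of another annotation. The STAG2 CDS had 104 RPM with FH-DHX36-E335A and 169 RPM with FH-DHX36, a ratio of 0.613 (0.542 to 0.694). The 3'UTR had 136 and 6.48 RPM, a ratio of 21.0 (12.5 to 38.5). With the reads of all genes pooled, the ratio was 0.597 for CDS reads and 1.39 for 3'UTR reads. The CDS ratio of STAG2 was close to the pooled value and its 3'UTR ratio was above it. Where STAG2 lies among the 3'UTR ratios of single genes was not computed. CDS reads were therefore relatively more frequent with FH-DHX36 and 3'UTR reads with FH-DHX36-E335A, although the whole gene was higher with FH-DHX36-E335A. Intronic reads were also relatively more frequent with FH-DHX36, with 90 FH-DHX36 reads in 2 clusters and 19 FH-DHX36-E335A reads in 1. Their ratio of 0.0521 (0.03 to 0.0862) was lower than that of the CDS. For the pooled intronic reads of all genes it was 0.526. The STAG2 CDS of 3807 nt held 3 matches to the guanine pattern. The match in exon 5 and the single 3'UTR match, both on the plus strand, are shown because the lines differed in opposite directions in these regions.
STAG2 CDS, chrX:123164846-123164863: GGGcaaaGGtGGaaatGG
STAG2 3'UTR, chrX:123236377-123236388: GGGGGaGGGtGG

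STAG1, which can replace STAG2 in cohesin, had a much smaller signal on a transcript of similar length. Its canonical mRNA has 6062 nt and that of STAG2 6179 nt. None of the 53 STAG1 reads was assigned to a UTR or the CDS. An intronic cluster held 33 of them and a cluster of another annotation 20. The recovered abundance was 3.32 for STAG1 and 6.73 for STAG2, a smaller difference than that of reads. Of the 20-nt words in the STAG1 transcript, 4 of 6043 also occurred in STAG2 transcripts, a search of spliced transcripts that does not cover the intron holding 33 of the reads.

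The cohesin kleisin and loader showed other patterns again. RAD21 had 603 reads in 14 3'UTR clusters, or 56.1% (53.2% to 59.1%), and 414 reads in 6 CDS clusters, or 38.5% (35.7% to 41.5%). Its density was 385 per kb in the 3'UTR and 218 in the CDS. No guanine-run match was found in the RAD21 3'UTR, which held the larger part of its reads, and 4 were found in its CDS. NIPBL, with the longest CDS of the group at 8415 nt, had 428 of 950 FH-DHX36-E335A reads in 12 CDS clusters, or 45.1% (41.9% to 48.2%), 129 in an intron, 28 in the 3'UTR and 313 in 1 cluster of another annotation. With FH-DHX36, NIPBL had no CDS cluster, and its 125 reads were split into 39 in the 5'UTR, 36 in an intron and 50 of another annotation.

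SMC2 and SMC6 were bound in the 3'UTR. SMC2 had 593 reads in 8 3'UTR clusters with FH-DHX36-E335A, or 55.4% (52.4% to 58.3%), 219 reads in 7 CDS clusters and 259 in 4 clusters of another annotation. All 32 of its FH-DHX36 reads were in the 3'UTR. Within that region, the ratio of FH-DHX36-E335A over FH-DHX36 was 4.57 (3.20 to 6.75), compared with 1.39 for the pooled 3'UTR reads of all genes. The SMC2 3'UTR of 2104 nt held no match to the guanine pattern, and 16.9% of its bases were G. SMC6, the partner of SMC5, had all 314 FH-DHX36-E335A reads and all 38 FH-DHX36 reads in the 3'UTR, at 186 and 22.5 reads per kb. These densities are not scaled for the unlike depth of the PAR-CLIPs. On the RPM scale, SMC6 had a ratio of 2.04 (1.45 to 2.94). Its 3'UTR held 2 matches, 714 and 739 nt into the region on the minus strand of exon 28, which are shown because every SMC6 read lay in this region.
SMC6, chr2:17846034-17846052: GGctGGGagaaGGGctGGG
SMC6, chr2:17846013-17846027: GGGagtGGaGGGtGG

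Base composition was not used to choose the genes. In the 3'UTRs, G made up 14.5% (SMC3) to 23.4% (SMC1A) of bases and T 27.1% (SMC1A) to 38.7% (SMC3). G content was higher in the 5'UTRs, from 22.4% in STAG2 to 50.5% in SMC5. The CDS had between 20.7% (SMC4) and 29.3% (SMC1A) G, and A was the commonest base in each of the 10, from 31.4% in SMC1A to 38.8% in SMC4. A guanine-run match was present in the CDS of 7 members and the 3'UTR of 6, compared with 84.6% and 64.2% of all canonical transcripts, although the members' median CDS of 3678 nt exceeds the overall median of 1320 nt. SMC3, SMC5 and SMC6 had no match within the CDS.

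Copies of these genes elsewhere in the genome can share reads with them. Of the 20-nt words in the CDS, 30.8% in RAD21, 14.9% in SMC3 and 8.79% in SMC5 also occurred in a transcript of another annotated gene, for RAD21 mainly RAD21P1 and for SMC3 mainly SMC3P1, which carry the names of pseudogenes. Over the whole transcript the share was 16.9% in RAD21, 10.2% in SMC3, 9.24% in SMC5 and 0.844% or less in the other 7 members. In the region with the most reads it was 0% for SMC5 (5'UTR), 0.323% for RAD21 (3'UTR) and 14.9% for SMC3 (CDS). RAD21, SMC3 and SMC5 were also 3 of the 4 members bound with FH-DHX36-E335A alone. The part of shared sequence in this was not tested.

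Several of these genes overlap others, and the strand setting of the authors' counting was not given in the sources used here. SMC4 (chr3:160117062-160152742, plus strand) overlaps IFT80 and TRIM59 on the opposite strand, and IFT80 was listed at 0. STAG2 (chrX:123094062-123556514, plus) overlaps SH2D1A and TEX13D on its own strand. On the opposite strand STAG2 overlaps TENM1, STAG1 (chr3:136055078-136471245, minus) overlaps PCCB, SMC1A (chrX:53401070-53449677, minus) overlaps RIBC1 and SMC6 (chr2:17845079-17981509, minus) overlaps GEN1. RAD21 overlaps UTP23 in the same way. No protein-coding gene overlapped NIPBL (chr5:36876871-37066515, plus), SMC2 (chr9:106856541-106903700, plus), SMC3 (chr10:112327442-112365806, plus) or SMC5 (chr9:72873894-72969789, plus). Pseudogenes or small RNA genes also lay on the same strand within some members, such as KRT18P31 in NIPBL, DNAJC8P2 in STAG1 and NPM1P34 in STAG2. Their part in the intronic reads was not tested.

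A list of 30 other genes comprised further subunits of these complexes, cohesin regulators in a wide sense (PTTG1, ESPL1 and HDAC8 among them), meiotic cohesin, SMCHD1 and CTCF. Of the 30, 24 had an FH-DHX36-E335A cluster and 14 an FH-DHX36 cluster, with medians of 441 and 128 reads. The shares were 34.5% and 22.4% over all genes, and 48.1% and 31.3% over identifiers that matched a protein-coding transcript. All genes with a cluster had medians of 326 and 121 reads. All 6 condensin subunits that join SMC2 and SMC4 had FH-DHX36-E335A reads. NCAPG, a HEAT-repeat subunit of condensin I, had the most in the whole list, 7120 reads in 10 clusters with FH-DHX36-E335A and 1390 in 3 clusters with FH-DHX36, and 1263 of the latter lay in the 5'UTR. Its FH-DHX36-E335A reads had 0 in the 5'UTR, 276 in the CDS, 88 in the 3'UTR and 6756 under another annotation. NCAPG2, its condensin II counterpart, had 1796 reads, of which 1646 were in the 3'UTR, and 32 with FH-DHX36. NCAPD2 had 770 and 207 reads, mostly in the CDS, with 612 and 191. NCAPD3 had 61 FH-DHX36-E335A reads and was listed at 0 with FH-DHX36. NCAPH2, the condensin II kleisin, had 174 and 91. The kleisin of condensin I, NCAPH, had 205 FH-DHX36-E335A reads in 4 clusters and 1092 FH-DHX36 reads in 1 cluster of another annotation. By NXPM, 3 of the 5 subunits bound in both were higher with FH-DHX36. They were NCAPH (6.25 with FH-DHX36-E335A, 135 with FH-DHX36), NCAPH2 (0.558, 1.18) and NCAPD2 (5.84, 6.36). Of all 5669 genes bound in both, 53.4% had the higher share of crosslinked reads with FH-DHX36-E335A and the others did not.

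Among the cohesin regulators, 10 of 11 had an FH-DHX36-E335A cluster and 6 an FH-DHX36 cluster, compared with 48.1% and 31.3% of identifiers that matched a protein-coding transcript. WAPL, listed under its older symbol WAPAL, releases cohesin from chromatin and was second in the list with 5469 reads in 35 clusters and 276 reads in 5 clusters. Like SMC3, NIPBL, SMC4 and SMC5, it had reads in the 5'UTR (658), the CDS (1393) and the 3'UTR (1488) with FH-DHX36-E335A. Its largest class, 1930 reads, was under another annotation. The lowest counts among bound genes were 18 for the acetyltransferase gene ESCO1 and 51 for NSMCE1 of the SMC5/6 complex. In that complex 6 of 7 further genes had FH-DHX36-E335A clusters and 2 had FH-DHX36 clusters, beside the same shares of 48.1% and 31.3%. No cluster in either was listed for HDAC8, which deacetylates SMC3, for EID3, or for the 4 meiotic cohesin genes SMC1B, RAD21L1, REC8 and STAG3.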

How the data were processed

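The authors aligned PAR-CLIP reads to hg19, built clusters by PARalyzer (run through PARpipe) and annotated these with GENCODE v19. The submitters' processing notes name bcl2fastq 2.17.1. Versions of the other programs are not given in the sources used here. As 1 table, the authors deposited counts of clusters and counts of crosslinked reads per gene and region, not normalized, and NXPM, a score the authors made from scaled reads and mRNA abundance, with both replicates in 1 value per cell line. No column of another sample was present.

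Abundance was computed as RPM divided by NXPM, minus a constant of 0.001, and came out the same from both PAR-CLIPs for the 5 members bound in both. Regions, sequences and 20-nt words came from canonical protein-coding transcripts of GENCODE 44 on GRCh37, the same build as hg19 in a later annotation, and the 54 printable matches within 1 exon were read back identically from the genome. The abundance step and the guanine search were checked on simulated data. Intervals are 95% intervals and cover counting error only. A test between cell lines, planned in case replicates were separate, could not be run. The members, gene lists and alternatives were chosen with earlier results of these data known. All 10 members are named, and of the 30 other genes the 2 highest and 2 lowest bound, the unbound and the condensin subunits. Alternatives were other thresholds, scalings, transcripts and search patterns. Python 3.11.15, numpy 2.4.6, pandas 2.3.3, scipy 1.17.1 and matplotlib 3.10.9 were used.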

Additional observations from a re-analysis of the deposited data

How the results depend on the processing

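Of 19 alternatives to 6 counts, 15 stayed within 1.5 times the value given. The count of members with more CDS than 3'UTR reads was 3 and stayed between 2 and 4, but its genes changed with the setting. With FH-DHX36 it was 2, namely SMC4 and STAG2. The number of members bound with FH-DHX36 moved from 5 to 3 when at least 2 clusters were required, and also to 3 with at least 100 crosslinked reads, since SMC2 and SMC6 then drop out by construction. The number of guanine-run matches moved from 66 to 2 with runs of at least 3 guanines and to 129 with gaps of up to 12 nt, so that it is set by the pattern. The number bound with FH-DHX36-E335A stayed at 8 or 9, and all 5 members bound in both PAR-CLIPs kept a higher share with FH-DHX36-E335A when scaled to the median ratio over genes or to exonic reads. NXPM gave the same 5 by construction, since it divides both values by the same abundance. Of the alternatives, 2, namely crosslinked reads in place of NXPM and the CDS count in the FH-DHX36 PAR-CLIP, were added after the data were seen. The summed 5'UTR share of the members moved from 15.6% to 7.17% (FH-DHX36-E335A) and from 25.9% to 5.87% (FH-DHX36) without SMC4, and to 21.3% and 51.0% without STAG2. The summed CDS share moved from 33.0% to 27.5% and from 46.8% to 54.97% without SMC4, and to 36.25% and 16.6% without STAG2. These sums were also added after the data were seen. Leaving out a replicate was not run, because the table does not separate them. No paired analysis was possible because the columns carry no replicate numbers. Depth limits the precision of the low counts, with 53 reads on STAG1 with FH-DHX36-E335A and 32 on SMC2 with FH-DHX36.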
